A study of Mus musculus with 24 samples.

Results

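Integrins and laminins are the cell-surface receptors and the basement membrane proteins by which heart cells hold on to their surroundings. The genes described here are 23 integrin chains and 9 laminin chains, 32 named mouse genes picked by gene symbol out of the 46078 rows of a table of read counts. Of these, 31 had more than 0.5 CPM (counts-per-million) in at least 6 of 24 libraries, as did 15456 genes of the whole table. The exception was Itga2, a collagen receptor chain, which passed 0.5 CPM in 4 libraries and had 143 reads over all 24.

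The study sequenced polyadenylated RNA from the ventricular apex of 24 male C57BL/6 mice, all 10 weeks old, at day 5, with 1 heart per library and 6 hearts per group. WT_PBS hearts were wild type, received no diphtheria toxin and were given the vehicle, phosphate-buffered saline. WT_PYR hearts were wild type without toxin and were given pyridostigmine, an inhibitor of the enzyme that breaks down acetylcholine. DTR_PBS and DTR_PYR hearts carried the DTR genotype and were injured by diphtheria toxin, with vehicle or with pyridostigmine. Diphtheria toxin kills mouse cells that have been given a receptor for it. The labels do not say which cells carried that receptor, and genotype and toxin cannot be told apart in these groups.

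An integrin is a pair of 1 alpha and 1 beta chain that spans the cell membrane, binding matrix outside and, through adaptor proteins, the actin skeleton inside. A laminin is a trimer of 1 alpha, 1 beta and 1 gamma chain, and laminins form the sheet of basement membrane around each cardiomyocyte and under the endothelium of each vessel. In adult heart muscle the integrin of alpha7 and beta1 is a main laminin receptor, while integrins of the alpha5 and alphav kind bind the RGD motif of fibronectin and of the provisional matrix laid down in wounds.

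The upstream sequences of 4 genes are shown because these genes gave differences of opposite direction: Itga5, Itgav and Itgax were higher after injury, and Lama5 was lower. Each line holds the 250 bases before the RefSeq start (GRCm38.p6), 5′ to 3′ on the gene's own strand, in lower case. Capitals mark GGGCGG (the GC box), TGANTCA (the AP-1 motif) or TATAAA (the TATA box), searched on both strands, so that a GC box on the other strand reads CCGCCC.
Itga5, chr15:103366792-103367041, minus strand: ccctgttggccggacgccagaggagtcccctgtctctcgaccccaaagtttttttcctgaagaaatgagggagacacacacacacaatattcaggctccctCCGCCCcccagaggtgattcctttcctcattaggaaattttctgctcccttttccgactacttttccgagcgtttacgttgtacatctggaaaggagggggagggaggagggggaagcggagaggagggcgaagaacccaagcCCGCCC
Itgav, chr2:83724147-83724396, plus strand: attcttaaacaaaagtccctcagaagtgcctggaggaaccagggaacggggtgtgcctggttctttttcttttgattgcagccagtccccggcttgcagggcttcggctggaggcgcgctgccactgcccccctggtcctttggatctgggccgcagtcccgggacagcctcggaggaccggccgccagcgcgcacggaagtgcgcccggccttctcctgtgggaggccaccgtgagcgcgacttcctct
Itgax, chr7:128129300-128129549, plus strand: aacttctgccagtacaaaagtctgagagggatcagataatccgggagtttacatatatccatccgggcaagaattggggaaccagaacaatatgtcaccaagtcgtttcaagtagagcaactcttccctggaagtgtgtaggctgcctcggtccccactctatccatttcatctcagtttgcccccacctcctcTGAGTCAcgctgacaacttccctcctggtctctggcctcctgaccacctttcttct
Lama5, chr2:180225860-180226109, minus strand: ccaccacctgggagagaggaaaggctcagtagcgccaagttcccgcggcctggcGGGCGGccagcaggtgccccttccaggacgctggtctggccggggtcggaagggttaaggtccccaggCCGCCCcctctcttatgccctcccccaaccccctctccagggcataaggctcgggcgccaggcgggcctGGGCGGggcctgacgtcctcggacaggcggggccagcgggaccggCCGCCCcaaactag
By the file, the genes themselves span chr15:103344289-103366763 (Itga5), chr2:83724397-83806916 (Itgav), chr7:128129547-128150656 (Itgax) and chr2:180176373-180225859 (Lama5). Lama5 held 4 GC boxes, Itga5 held 2, and Itgav and Itgax held none. Itgax held the AP-1 motif 1 time. No printed match overlaps another. Of all 32851 RefSeq promoters, 32.7% held GGGCGG in the same window, 4.09% held it 4 or more times, 6.75% held TGANTCA and 12.4% held TATAAA. RefSeq entries were found for 22 of the 32 genes (25 entries), of which 8 entries held GGGCGG, 1 held TGANTCA and 0 held TATAAA. These matches describe letters and were not tested as binding sites.

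The libraries held 1877914 to 37842245 counted reads, of which 4.59% to 25.6% came from mitochondrial genes. The injured, pyridostigmine-treated libraries DTR_PYR 4, 5 and 6 stood apart from the rest of their group. On the first principal component of all genes (44.2% of variance) the 12 uninjured libraries lay between -57.2 and -35.1, the other 9 injured libraries between 30.3 and 114, and these 3 at -35.4, -25.6 and -20.9. Calls and chain ratios in DTR_PYR are therefore given with and without them, and a larger injury difference without them follows from how they were picked. Animal tags end in U or V, with no stated meaning: each uninjured group has 4 U and 2 V hearts, each injured group 2 U and 4 V, and all 3 of the libraries above are V. The 10 ventricular cardiomyocyte markers summed to 90210.2 to 94435.4 CPM in WT_PBS against 21.8 to 39.8 CPM for 4 atrial markers, most of it Stard10 (20.6 to 37.6 CPM). Of these markers Myl2 ran from 7013 to 9523 CPM, against at most 3.26 CPM for Myl7, 2.49 for Myl4 and 0.289 for Sln. No marker of the apex was examined.

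In uninjured vehicle-treated hearts the levels, read per exonic kilobase so that genes could be compared, were led by Lamb2, the laminin beta2 chain, at 140 ± 23.1 CPM per kb (SD, n = 6). Itgb1, the beta1 chain shared by most matrix integrins, followed at 62.0 ± 13.4 CPM per kb. Itgb5 (42.1 ± 7.07), Lamc1 (37.4 ± 1.72), Lama5 (36.2 ± 9.17) and Itga7 (35.7 ± 4.96) came next and did not differ from each other beyond their spread. Itga5 (20.3 ± 3.02), Itga6 (15.3 ± 2.20) and Lamb1 (15.0 ± 1.35) formed the next group. The leukocyte chains Itgal, Itgax and Itgb7 lay at 0.512 ± 0.204, 0.371 ± 0.212 and 0.534 ± 0.235 CPM per kb.

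Of 31 tested genes, 11 rose and 7 fell with injury under vehicle, DTR_PBS against WT_PBS (edgeR's quasi-likelihood test, Benjamini-Hochberg adjusted p under 0.05 over all 15456 genes). Of 22 integrin chains 11 rose, 2 fell (Itga6 and Itgb6) and 9 did not pass. Itgae and Itgb8, counted among the 11, entered the test mostly through injured hearts, where they were higher. Of 9 laminin chains 5 fell, 0 rose and 4 did not pass. Integrins were not tested against laminins. Over all genes 42.9% were called (21.3% up, 21.6% down), so calls were common in this comparison. The median size of the log2 difference was 1.03 for the 31 genes and 0.53 for all genes tested. The 6 vehicle-treated injured hearts did not overlap the 6 uninjured ones for 7 genes that were higher and 5 that were lower, against 11.2% and 11% of all genes. Itgae is among the 7 higher genes. Scaling by total counts alone in place of TMM (trimmed mean of M values) shifts the median log2 difference of all genes to 0.38, and the split became 18 up and 6 down, with 36.9% of all genes up and 11.4% down. Itga1, Itga3, Itgal, Itga2b, Itgb1, Itgb4 and Lamc1 then passed upward and Lama3 no longer passed.

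**Figure D1:**
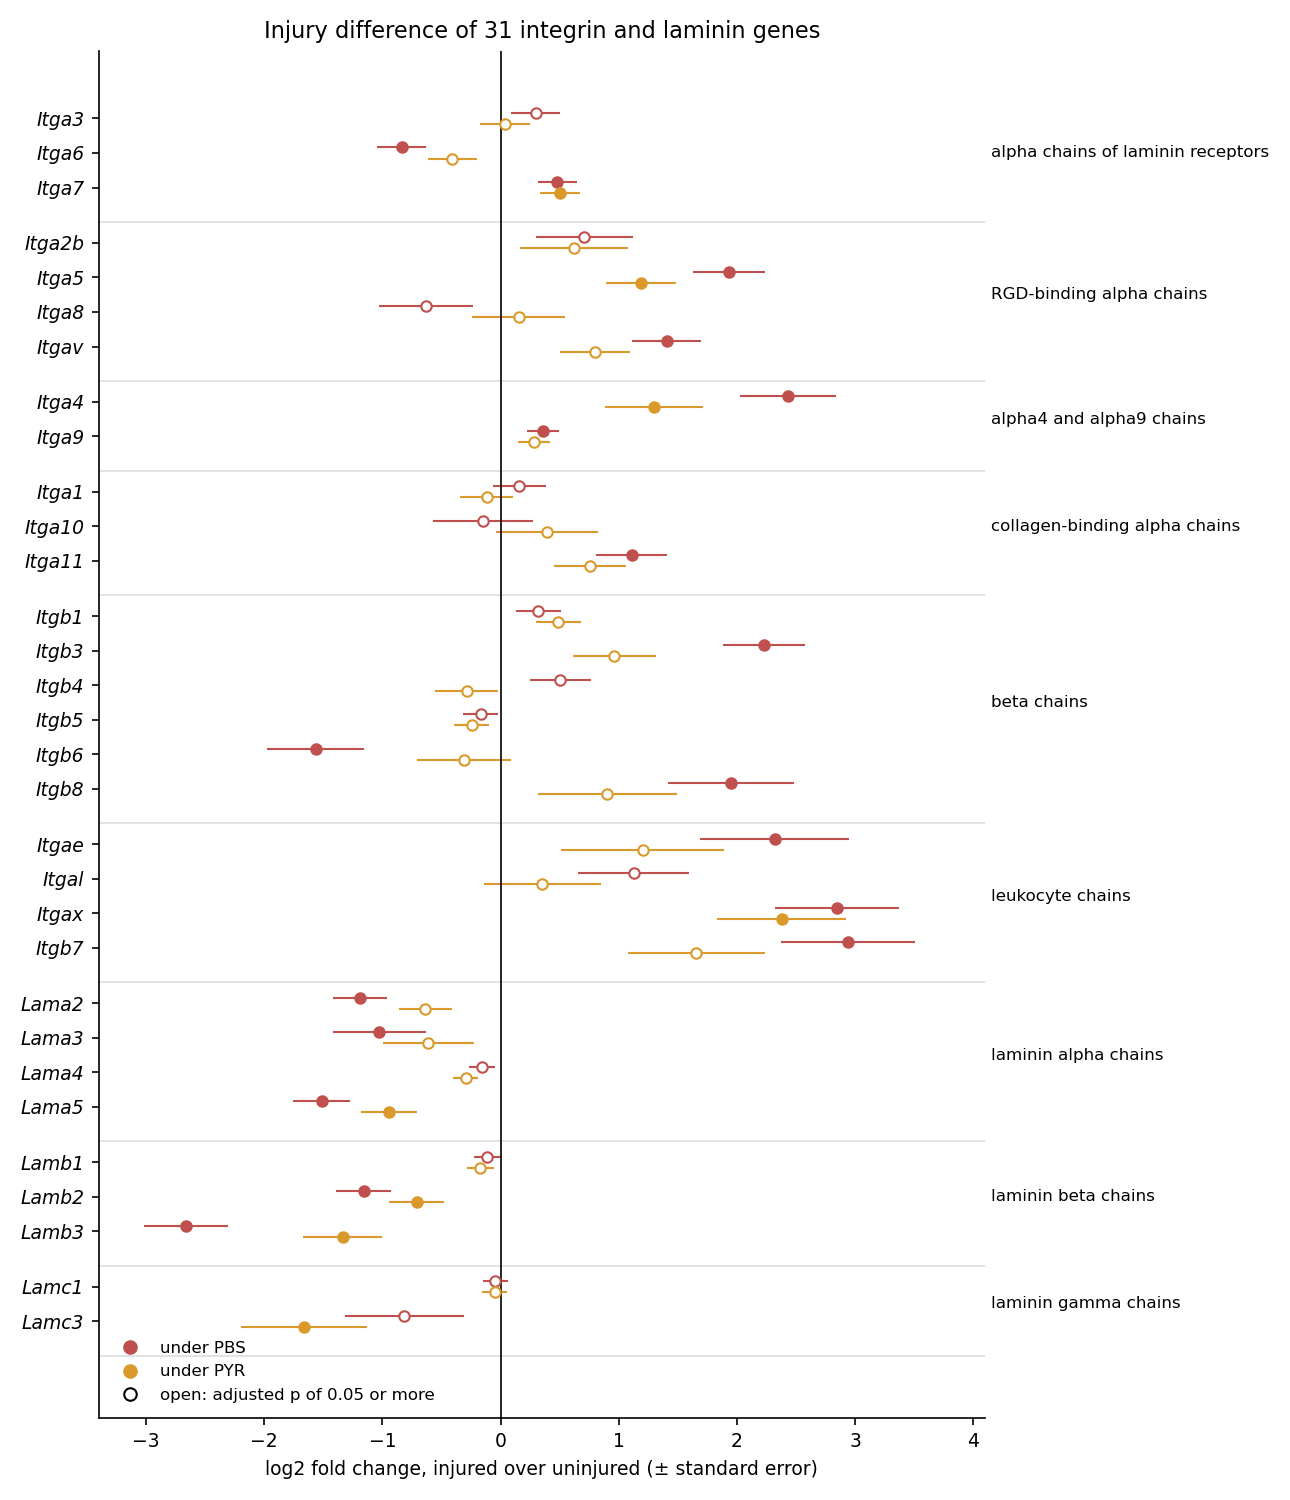
Log2 fold change of injured over uninjured hearts for 31 integrin and laminin genes, ordered by role, under vehicle (red) and under pyridostigmine (orange), 6 hearts a group; bars are ± 1 standard error and open points did not pass an adjusted p of 0.05. Under vehicle the passing integrin chains other than Itga6 and Itgb6 lie right of 0 and the passing laminin chains left of it. For 23 of 31 genes the orange point is nearer to 0. Over all genes tested the median size of the log2 difference was also smaller under pyridostigmine (0.35) than under vehicle (0.53).

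The alpha chains that bind RGD matrix were led by Itga5, the alpha chain of the classic fibronectin receptor. Its level ran from 76.1 to 112 CPM (median 106) in WT_PBS and from 266 to 548 CPM (median 383) in DTR_PBS. All 6 injured hearts lay above all 6 uninjured ones, and the log2 difference was 1.93 ± 0.30 (SE, adjusted p = 4.36e-05). Itgav, the alphav chain that pairs with several beta chains and can activate latent TGF-beta, ran from 12.7 to 25 CPM (median 17.7) in WT_PBS and from 25.1 to 86.3 CPM (median 37.9) in DTR_PBS. The groups touched without overlapping, with a log2 difference of 1.40 ± 0.29 (adjusted p = 0.000469). In the libraries with V tags alone Itgav did not pass (adjusted p = 0.0965). Neither Itga8, a chain of mesenchymal cells (log2 difference -0.63 ± 0.40, adjusted p = 0.206), nor Itga2b, the platelet chain (0.71 ± 0.41, adjusted p = 0.165), passed.

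Itgb3, the beta chain that pairs with alphav and with the platelet chain, ran from 1.92 to 3.53 CPM (median 2.32) in WT_PBS and from 5.73 to 20.1 CPM (median 9.58) in DTR_PBS, with no overlap and a log2 difference of 2.23 ± 0.35 (adjusted p = 4.18e-05). The 7 platelet markers summed to 14.3 to 16.9 CPM in WT_PBS and 20.8 to 89.0 CPM in DTR_PBS, with 2 of 4 tested higher. Pf4 held most of this rise, at 6.85 to 11.6 CPM and 16.5 to 74.7 CPM, and Ppbp leaned upward. Gp1ba (2.99 to 5.57 and 1.33 to 5.25 CPM), Gp1bb, Gp9, Gp6 and Treml1 ran over overlapping ranges. The part of these markers in the Itgb3 difference was not tested. Itgb8, another alphav partner, ran from 0.322 to 1.54 CPM (median 0.592) in WT_PBS and from 1.07 to 5.76 CPM (median 2.52) in DTR_PBS. These ranges overlapped, with a log2 difference of 1.95 ± 0.53 (adjusted p = 0.00462). Itgb8 entered the test mostly through injured hearts, where it was higher, with 10 of its 15 libraries over 0.5 CPM among them. Its call is therefore given as a description. Itgb6, the alphav partner of epithelia, went the other way, from 11.3 to 25.1 CPM (median 17.1) in WT_PBS to 0.443 to 12 CPM (median 5.28) in DTR_PBS. Again the ranges overlapped, and the log2 difference was -1.56 ± 0.41 (adjusted p = 0.0034). Neither Itgb8 nor Itgb6 passed in the V libraries alone (adjusted p = 0.463 and 0.112).

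The beta chains Itgb1, Itgb5 and Itgb4 did not pass. Itgb1 ran from 165 to 338 CPM (median 255) in WT_PBS and from 227 to 464 CPM (median 293) in DTR_PBS, and its log2 difference of 0.32 ± 0.19 did not pass (adjusted p = 0.177). Itgb5, an alphav partner that binds vitronectin, had a log2 difference of -0.17 ± 0.15 (adjusted p = 0.389), which turned to 0.19 under total-count scaling. Itgb4, the hemidesmosome chain, had 0.51 ± 0.26 (adjusted p = 0.12).

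The laminin-receptor alpha chains parted. Itga7, the chain of muscle fibres and cardiomyocytes, ran from 226 to 338 CPM (median 296) in WT_PBS and from 292 to 492 CPM (median 429) in DTR_PBS. The ranges overlapped, and the log2 difference was 0.48 ± 0.17 (adjusted p = 0.0208), a call that was lost without WT_PBS 6 or without DTR_PBS 3 and in the U and the V libraries alone. Itga6, a chain of endothelial and epithelial laminin receptors, ran from 115 to 165 CPM (median 138) in WT_PBS and from 54.9 to 98.7 CPM (median 77.4) in DTR_PBS. Every injured heart lay below every uninjured one, with a log2 difference of -0.84 ± 0.21 (adjusted p = 0.00199). Itga3, another laminin-binding chain, had 0.30 ± 0.21 (adjusted p = 0.259). The 6 endothelial markers summed to 922 to 1297 CPM in WT_PBS and 550 to 757 CPM in DTR_PBS, with 4 of 6 lower. Their part in the Itga6 difference was not tested, and in bulk tissue fewer cells of a type and less RNA per cell cannot be told apart.

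Of the alpha4 and alpha9 chains, which bind VCAM1, fibronectin splice segments and tenascin-C, Itga4 ran from 1.09 to 2.69 CPM (median 1.59) in WT_PBS and from 4.0 to 19.6 CPM (median 6.48) in DTR_PBS. The groups did not overlap, with a log2 difference of 2.43 ± 0.41 (adjusted p = 6.85e-05). The libraries were not strand-specific, and 8.04% of the exonic bases of Itga4 are shared with Cerkl on the opposite strand. Itga9 ran from 75.0 to 96.6 CPM (median 83.6) in WT_PBS and from 93.1 to 126 CPM (median 105) in DTR_PBS. This small, overlapping difference, 0.36 ± 0.14 on the log2 scale (adjusted p = 0.0333), kept its call in 6 of 12 fits that left out 1 library, failing without WT_PBS 3, 4, 5 or 6 or DTR_PBS 3 or 6.

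Of the collagen-binding chains, Itga11, a fibroblast receptor for fibrillar collagen, ran from 4.54 to 7.26 CPM (median 5.71) in WT_PBS and from 7.25 to 18.0 CPM (median 11.5) in DTR_PBS. The ranges met at their edge and the log2 difference was 1.11 ± 0.30 (adjusted p = 0.00408). The 6 fibroblast markers summed to 573 to 684 CPM in WT_PBS and 1273 to 2393 CPM in DTR_PBS, although 2 of the 6 passed upward. Col1a1 held most of this rise, at 90.8 to 316 CPM and 866 to 1779 CPM. Pdgfra (29.0 to 44.1 and 44.9 to 125 CPM) and Lum (17.0 to 44.4 and 24.4 to 63.8 CPM) leaned upward. Dcn (197 to 417 and 263 to 359 CPM), Dpt and Tcf21 ran over much the same range in both groups. The part of these markers in the Itga11 difference was not tested. Itga1 (0.16 ± 0.23) and Itga10 (-0.15 ± 0.42) did not pass. Itga10 is uncertain, since 33.5% of its exonic bases are shared with Gm42957 on the same strand.

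Itgb7 and Itgax, both leukocyte chains, gave the largest integrin differences of the 22 tested chains. Itgax, the CD11c chain of macrophages and dendritic cells, ran from 0.642 to 2.99 CPM (median 1.73) in WT_PBS and from 7.60 to 16.9 CPM (median 12) in DTR_PBS, a log2 difference of 2.85 ± 0.52 without overlap (adjusted p = 0.000159). Itgb7, which pairs with alpha4 and alphaE on lymphocytes and some myeloid cells, ran from 0.524 to 2.17 CPM (median 1.70) in WT_PBS and from 4.80 to 19.9 CPM (median 10.8) in DTR_PBS, with a log2 difference of 2.94 ± 0.57 and no overlap (adjusted p = 0.000242). Itgae, the alphaE chain, also named CD103, ran from 0 to 0.429 CPM (median 0.275) in WT_PBS and from 0.533 to 2.67 CPM (median 1.45) in DTR_PBS. Its log2 difference was 2.32 ± 0.63 (adjusted p = 0.00434), and it entered the test mostly through injured hearts, with 9 of its 10 libraries over 0.5 CPM among them. Its call is therefore given as a description. In V libraries alone Itgae did not pass (adjusted p = 0.1). Itgal, the alpha chain of LFA-1, had a log2 difference of 1.13 ± 0.47 that did not pass (adjusted p = 0.0542).

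The macrophage list rose as a whole, and the other blood cell lists in part or not at all. The 7 macrophage markers summed to 180 to 264 CPM in WT_PBS and 445 to 1076 CPM in DTR_PBS, and 7 of 7 passed upward. The 5 neutrophil markers summed to 3.0 to 7.58 CPM and 9.60 to 30.6 CPM, with 3 of 5 higher. T and NK cell markers (1.29 to 3.72 CPM and 1.94 to 7.98 CPM, 0 of 4 tested passing) and B cell markers (0.783 to 3.86 CPM and 1.51 to 5.33 CPM, 0 of 3) were near 0 in both groups. The 5 dendritic cell markers summed to 19.9 to 29.6 CPM and 15.2 to 23.9 CPM, with 2 higher and 1 lower. Zbtb46 held most of this sum, at 15.4 to 23.3 CPM and 12.2 to 15.6 CPM. Flt3 (0.175 to 0.543 and 0.750 to 3.24 CPM) and Cd209a (0 to 0.482 and 0.125 to 2.21 CPM) leaned upward. Clec9a and Xcr1 ran over overlapping ranges. The part of any of these cells in the integrin differences was not tested.

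**Figure D2:**
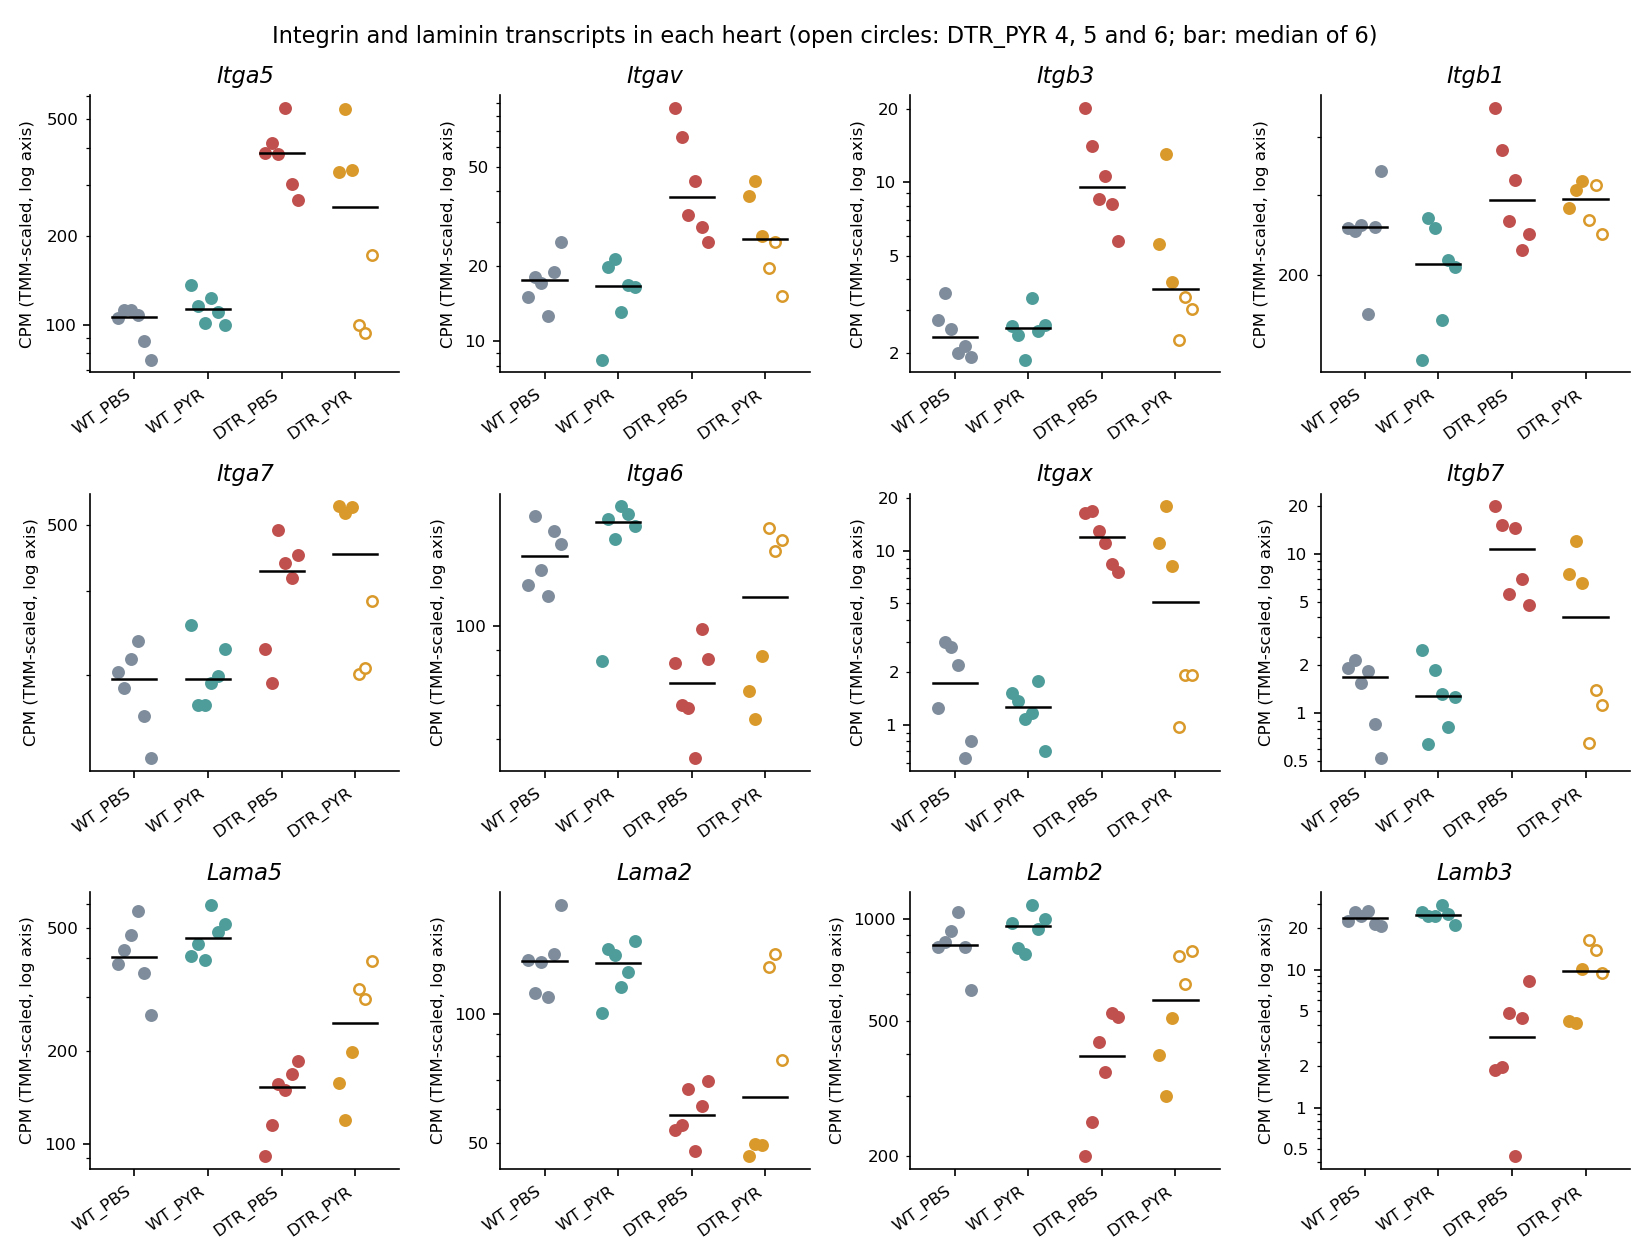
CPM (TMM-scaled, log axis) of 12 integrin and laminin genes in each of 24 hearts by group; each circle is 1 heart, the bar is the median of 6, and open circles are DTR_PYR 4, 5 and 6. In Itga5 the vehicle-treated injured hearts sit between 266 and 548 CPM, above all uninjured ones, and the open circles at 93.8 to 172 CPM; in Lama5 the order is reversed.

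Laminin chains either fell or did not pass. Lama5, the alpha5 chain of vessel and muscle basement membranes, ran from 262 to 568 CPM (median 404) in WT_PBS and from 91.1 to 186 CPM (median 153) in DTR_PBS. No hearts overlapped, and the log2 difference was -1.51 ± 0.24 (adjusted p = 4.67e-05). Lama2, the alpha2 chain of the muscle fibre's own basement membrane, ran from 110 to 181 CPM (median 133) in WT_PBS and from 47.8 to 69.7 CPM (median 58.0) in DTR_PBS. Again no hearts overlapped (log2 difference -1.19 ± 0.23, adjusted p = 0.000217). Lama4, the alpha4 chain of endothelium, stayed close, at 99.1 to 116 CPM (median 109) and 90.2 to 110 CPM (median 96.4), and its log2 difference of -0.16 ± 0.11 did not pass (adjusted p = 0.253).

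Among the beta chains, Lamb2 ran from 619 to 1048 CPM (median 840) in WT_PBS and from 199 to 529 CPM (median 394) in DTR_PBS, without overlap (log2 difference -1.16 ± 0.23, adjusted p = 0.000382). In the V libraries alone Lamb2 did not pass (adjusted p = 0.0789). Lamb1, the beta1 chain, ran from 132 to 164 CPM (median 154) and from 126 to 155 CPM (median 133), and did not pass (-0.11 ± 0.12, adjusted p = 0.458). Lamc1, the gamma1 chain found in most laminins, ran from 296 to 328 CPM (median 304) and from 276 to 322 CPM (median 302), with a log2 difference of -0.04 ± 0.11 (adjusted p = 0.775). Under total-count scaling Lama4, Lamb1 and Lamc1 turned positive (0.22, 0.26 and 0.32), and Lamc1 then passed (adjusted p = 0.0448).

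The chains of laminin-332, the epithelial laminin, were low in this tissue. Lamb3 ran from 21.0 to 26.9 CPM (median 23.6) in WT_PBS and from 0.443 to 8.27 CPM (median 3.24) in DTR_PBS. This was the largest fall of the family, -2.67 ± 0.36 on the log2 scale without overlap (adjusted p = 1.52e-05). Lama3 ran from 3.25 to 8.13 CPM (median 3.72) and from 1.40 to 3.6 CPM (median 2.03), with overlap, and its log2 difference of -1.03 ± 0.39 (adjusted p = 0.0376) kept its call in 6 of 12 fits that left out 1 library, failing without WT_PBS 2 or 5 or DTR_PBS 1, 2, 3 or 4. Markers of epithelium and mesothelium summed to 6.64 to 65.5 CPM in WT_PBS and 7.67 to 37.2 CPM in DTR_PBS, with 0 of 6 tested passing. Lamc3, a rare gamma chain, ran from 0.214 to 1.57 CPM and from 0 to 0.540 CPM and did not pass (-0.81 ± 0.51, adjusted p = 0.202).

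Some other cell markers were lower in DTR_PBS, as the passing laminins were. The 10 cardiomyocyte markers summed to 26047.2 to 71800.4 CPM in DTR_PBS, below the WT_PBS range given above, and 7 of 10 fell. The 6 smooth muscle and pericyte markers summed to 788 to 1456 CPM in WT_PBS and 482 to 623 CPM in DTR_PBS, with 3 of 6 lower. Schwann cell markers (5.97 to 13.3 CPM and 6.44 to 11.5 CPM, 1 of 4 tested lower) ran over much the same range. The part of these cells in the laminin differences was not tested.

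Because Lama4 and Lamb1 differed little while Lama5, Lama2 and Lamb2 fell, the make-up of the laminin messages differed. Per exonic kilobase, Lama5 made up 66.3% ± 7.96 (SD, n = 6) of the alpha chain signal in WT_PBS and 51.0% ± 7.10 in DTR_PBS. Lama4 made up 17.0% ± 2.80 and 33.4% ± 6.60, with the lowest injured heart (26.4%) above the highest uninjured one (21.8%). Lama2 held 15.9% ± 5.17 and 14.7% ± 1.46. Among beta chains Lamb1 held 9.57% ± 1.0 and 19.8% ± 7.74. Of the laminin-receptor alpha chains Itga7 held 63.8% ± 4.65 and 77.3% ± 3.31, and Itga6 27.8% ± 5.23 and 13.6% ± 3.38. These shares are descriptions of the same libraries and carry no test of their own.

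**Figure D3:**
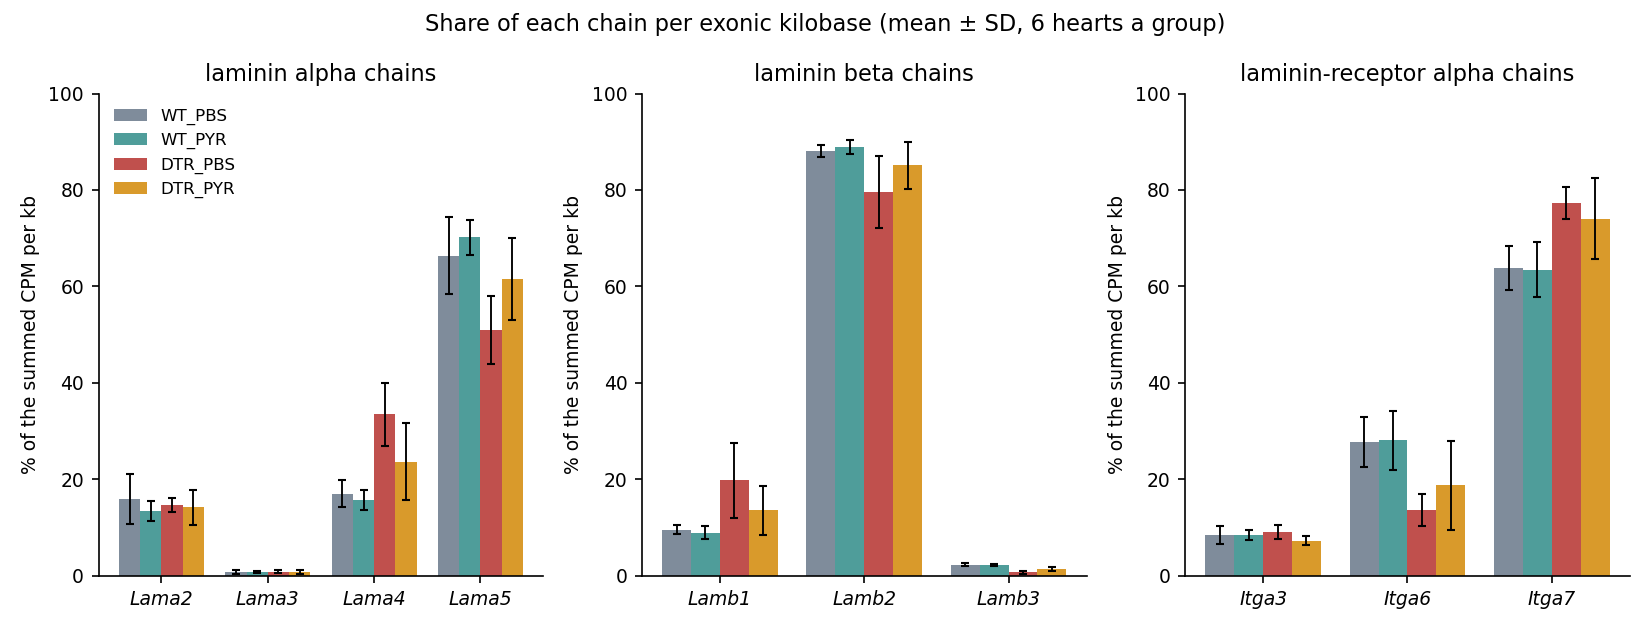
Share of each chain in the summed CPM per exonic kilobase of its set (laminin alpha, laminin beta and laminin-receptor alpha chains), as mean ± SD of 6 hearts in each of 4 groups. Lama4 is at 17.0% in WT_PBS and 33.4% in DTR_PBS, and Itga6 at 27.8% and 13.6%.

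Ratios of 2 chains within a library do not depend on the scaling between libraries. The log2 ratio of Itga5 to Itga7 reads was -1.53 ± 0.10 (SD, n = 6) in WT_PBS and -0.09 ± 0.51 in DTR_PBS, a difference of 1.44 (exact two-sided permutation p = 0.00216, the smallest that 6 against 6 allows; adjusted p = 0.0115 over 16 tests). The ratio of Itgb3 to Itgb5 went from -5.90 ± 0.35 to -3.68 ± 0.55, a difference of 2.22 with the same exact p and adjusted p. Lamb1 over Lamb2 went from -2.5 ± 0.17 to -1.39 ± 0.69, a difference of 1.12 with again the same exact p and adjusted p. In all 3 ratios every injured vehicle-treated heart lay above every uninjured one. Lama5 over Lama2 differed by -0.33 (exact permutation p = 0.268, adjusted p = 0.349), so the fall of these 2 alpha chains was not shown to be unequal. Within U and V tags the first 3 differences were 1.80 and 1.26, 2.60 and 2.03, and 1.75 and 0.73, while that of Lama5 over Lama2 was -0.59 and 0.10.

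**Figure D4:**
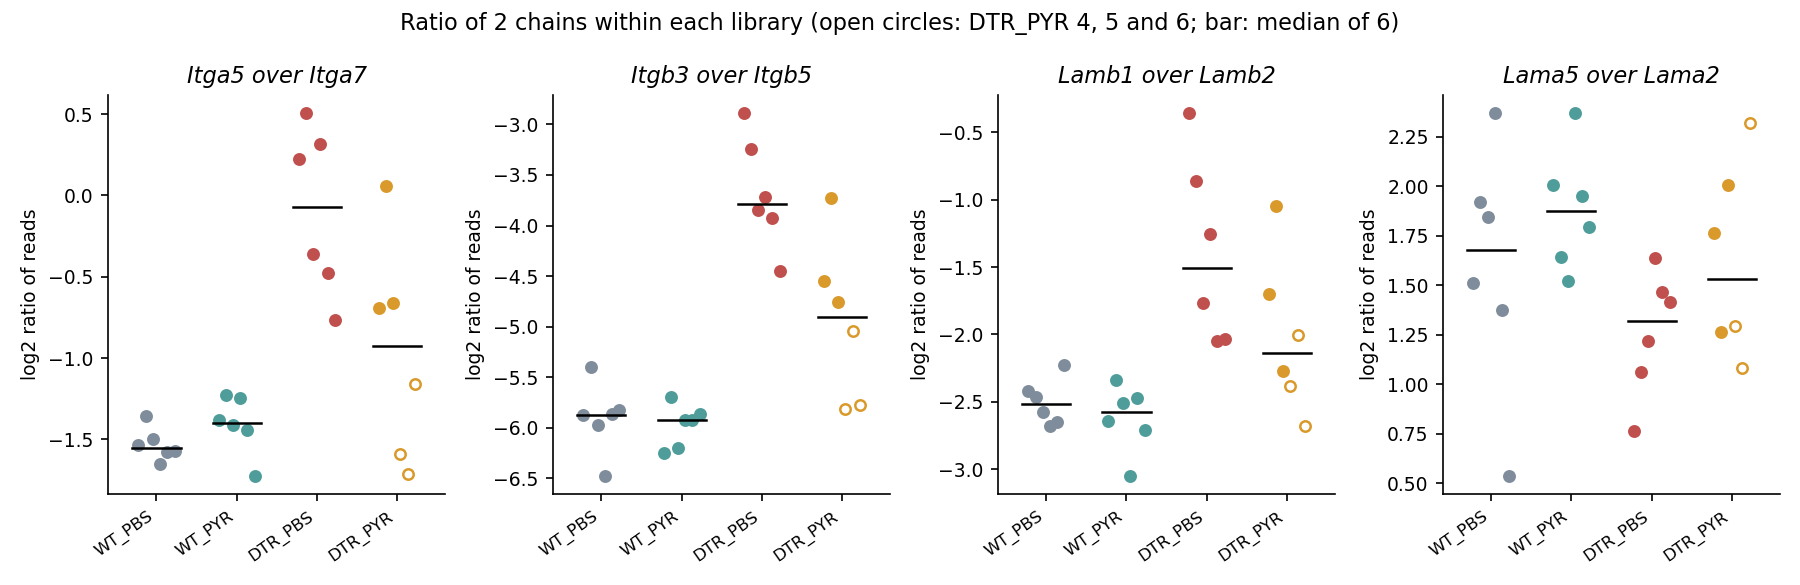
Log2 ratio of reads of 2 chains within each library, by group; each circle is 1 heart, bars are medians of 6, open circles are DTR_PYR 4, 5 and 6. For Itga5 over Itga7, Itgb3 over Itgb5 and Lamb1 over Lamb2 the DTR_PBS hearts lie above the uninjured ones, with mean differences of 1.44, 2.22 and 1.12.

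Under pyridostigmine, injury differences were called for fewer genes. In DTR_PYR against WT_PYR 4 of 31 genes rose (Itga5, Itga4, Itga7 and Itgax) and 4 fell (Lama5, Lamb2, Lamb3 and Lamc3), where 12.2% of all genes were called (8.06% up, 4.17% down). The groups did not overlap for 0 higher and 2 lower genes, Lama5 and Lamb3, against 2.19% and 3.18% of all genes. Of the 8 genes 7 had passed under vehicle in the same direction, Lamc3 being the exception. Under vehicle 42.9% of all genes were called, and how many genes passed in both comparisons was not counted over all genes. Lamc3 lay at 0.422 to 1.60 CPM (median 1.11) in WT_PYR and 0.147 to 0.540 CPM (median 0.343) in DTR_PYR, with a log2 difference of -1.66 ± 0.53 (adjusted p = 0.042). It entered the test mostly through uninjured hearts, where it was higher, with 8 of its 11 libraries over 0.5 CPM among them, so its call is given as a description. It kept the call in 3 of 12 fits that left out 1 library, failing without WT_PYR 1, 3, 4 or 5 or DTR_PYR 1, 2, 3, 5 or 6, and it failed without DTR_PYR 4, 5 and 6 together (-2.10, adjusted p = 0.0642).

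The spread within DTR_PYR was wide. Itga5 ran from 99.4 to 137 CPM (median 113) in WT_PYR and from 93.8 to 542 CPM (median 251) in DTR_PYR, where DTR_PYR 1 to 3 held 330 to 542 CPM and DTR_PYR 4 to 6 held 93.8 to 172 CPM. Its log2 difference was 1.19 ± 0.30 (adjusted p = 0.0117), and 1.81 without the latter 3 (adjusted p = 2.73e-07). Itgax ran from 0.703 to 1.78 CPM (median 1.27) in WT_PYR, and was at 8.18 to 18.0 CPM in DTR_PYR 1 to 3 and 0.971 to 1.93 CPM in DTR_PYR 4 to 6 (log2 difference 2.38 ± 0.54, adjusted p = 0.00761, and 3.30 without the latter 3, adjusted p = 1.13e-06). Itga4 ran from 1.45 to 2.33 CPM (median 1.87) in WT_PYR and from 1.73 to 9.17 CPM (median 3.87) in DTR_PYR, and Itga7 from 271 to 356 CPM (median 296) and from 301 to 533 CPM (median 453). Both overlapped, with log2 differences of 1.30 ± 0.42 (adjusted p = 0.0416) and 0.50 ± 0.17 (adjusted p = 0.0464). Without DTR_PYR 4, 5 and 6 these became 1.84 (adjusted p = 0.00325) and 0.80 (adjusted p = 0.000615). With 1 of 12 libraries left out Itga4 failed without any 1 of WT_PYR 1 to 6 or DTR_PYR 1 to 3, Itga7 without any 1 of WT_PYR 2 to 6 or DTR_PYR 1 to 3, and Itga5 without DTR_PYR 2.

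Of the 9 laminin chains, Lama2, Lama3, Lama5 and Lamb2 were lower in each of DTR_PYR 1 to 3 than in any of DTR_PYR 4 to 6, and the other 5 overlapped. These libraries were set apart on all genes, and the share of all genes that separates them was not counted. Lama5 ran from 395 to 597 CPM (median 465) in WT_PYR, against 119 to 199 CPM in DTR_PYR 1 to 3 and 294 to 391 CPM in DTR_PYR 4 to 6 (log2 difference -0.94 ± 0.24, adjusted p = 0.0124, and -1.58 without the latter 3, adjusted p = 3.69e-05). Lamb3 ran from 21.2 to 29.7 CPM (median 25) in WT_PYR and from 4.14 to 16.5 CPM (median 9.78) in DTR_PYR, all 6 hearts being lower (-1.34 ± 0.33, adjusted p = 0.0117). Here DTR_PYR 1 to 3 (4.14 to 10.1 CPM) and DTR_PYR 4 to 6 (9.44 to 16.5 CPM) overlapped, and the log2 difference was -2.11 without the latter (adjusted p = 0.000526). Lamb2 ran from 789 to 1103 CPM (median 954) and from 301 to 806 CPM (median 577), with overlap (-0.71 ± 0.23, adjusted p = 0.0454), and failed without any 1 of WT_PYR 1, 2, 4, 5 or 6 or DTR_PYR 1, 2 or 3. Without DTR_PYR 4, 5 and 6 it was -1.22 (adjusted p = 0.00103). For Lama2, DTR_PYR 1 to 3 held 46.5 to 49.7 CPM and DTR_PYR 4 to 6 held 78.1 to 139 CPM, and its log2 difference of -0.64 ± 0.22 did not pass (adjusted p = 0.0595). Lama2 passed without DTR_PYR 4, 5 and 6 (-1.41, adjusted p = 2.31e-06), with the tag letter as a term (-0.84, adjusted p = 0.00704) and in U libraries alone (-1.35, adjusted p = 0.000173), and not in V libraries alone (-0.51, adjusted p = 0.973).

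DTR_PYR 4 to 6 were set apart on all genes, and the 18 genes by their call under vehicle. Some separation therefore follows from how both were picked, and its share over all genes was not counted. For 14 of the 18 genes DTR_PYR 1 to 3 all lay beyond DTR_PYR 4 to 6 in the injury direction. For 10 of the 18, DTR_PYR 4 to 6 all lay within the range of the 12 uninjured hearts. Macrophage markers split likewise, at 486 to 1370.0 CPM in DTR_PYR 1 to 3 and 242 to 264 CPM in DTR_PYR 4 to 6, as did cardiomyocyte markers, at 37913.3 to 69002.1 CPM and 73350.9 to 84159.4 CPM. The part of these cells was not tested. The number of genes called, 8, became 17 (10 up, 7 down) without DTR_PYR 4, 5 and 6, where 32.5% of all genes were called. Without the libraries under 3000000 reads (DTR_PBS 4, DTR_PYR 2 and DTR_PYR 3) it became 0, with 0.647% of all genes called. It was 17 in U libraries alone (28.3% of all genes), where DTR_PYR has 2 hearts, and 0 in V libraries alone (0% of all genes), where 3 of its 4 hearts are those that stood apart. Calls over all genes moved with the same libraries. Leaving out 1 library gave 3 to 13 (4.81% to 17.5% of all genes): 3 without DTR_PYR 2, 4 without DTR_PYR 1, DTR_PYR 3, WT_PYR 4 or WT_PYR 5, 5 without WT_PYR 1, 2, 3 or 6, and 13 without DTR_PYR 4.

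Pyridostigmine itself was compared within injured hearts, DTR_PYR against DTR_PBS. Of 31 genes 0 passed (0% of all 15456 genes did), while 12 had an unadjusted p under 0.05, and the smallest adjusted p was 0.131. DESeq2 called 2 of the 31 genes (1.57% of all genes) and limma voom 10 (11.4% of all genes). The largest test values belonged to Lamb3 (log2 difference 1.42 ± 0.35, adjusted p = 0.131), Itgb3 (-1.19 ± 0.34, adjusted p = 0.131) and Lama5 (0.78 ± 0.24, adjusted p = 0.134). Itgb3 ran from 2.27 to 13 CPM (median 3.64) in DTR_PYR, overlapping the DTR_PBS range given above. Without DTR_PYR 2 the count was 12, with 15.6% of all genes called (Lama5, Lamb2, Lamb3 and Itga6 higher; Itga4, Itga5, Itgav, Itgal, Itgax, Itgb3, Itgb7 and Itgb8 lower), and without DTR_PBS 6 it was 1 (Lamb3), with 0.194%. Without the libraries under 3000000 reads it was 12 (5 up, 7 down), with 13.7%, and without DTR_PYR 4, 5 and 6 it was 0, with 0%. Without those 3 hearts the log2 differences of Lamb3, Itgb3 and Lama5 were 0.65, -0.60 and 0.14 (adjusted p = 0.819, 0.819 and 0.895). The injury comparison under vehicle and this one share the DTR_PBS hearts, so their opposite signs are not independent.

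The chain ratios gave 1 difference between the injured groups. Itgb3 over Itgb5 was -4.94 ± 0.79 in DTR_PYR and -3.68 ± 0.55 in DTR_PBS, a difference of -1.27 (exact permutation p = 0.013, adjusted p = 0.0416). It held in 2 of 12 sets that left out 1 library, those without DTR_PBS 6 and without DTR_PYR 2, with differences of -1.51 to -1.09 over the 12. Itga5 over Itga7 differed by -0.87 (exact permutation p = 0.0325, adjusted p = 0.0742), Lamb1 over Lamb2 by -0.63 (adjusted p = 0.234) and Lama5 over Lama2 by 0.36 (adjusted p = 0.242), all by the same exact test. Under pyridostigmine the injury difference was 1.03 for Itgb3 over Itgb5 (exact permutation adjusted p = 0.0346), with U and V values of 1.85 and 0.60, 0.61 for Lamb1 over Lamb2 (adjusted p = 0.0742) and 0.45 for Itga5 over Itga7 (adjusted p = 0.242). The Itgb3 over Itgb5 value lost its call without WT_PYR 1, 3, 4 or 5 or DTR_PYR 1, 3 or 5, at 0.79 to 1.2 over the 12 sets. Without DTR_PYR 4, 5 and 6, which leaves 3 hearts and is given with no test, the differences between the injured groups were -0.67 for Itgb3 over Itgb5, -0.34 for Itga5 over Itga7, -0.29 for Lamb1 over Lamb2 and 0.42 for Lama5 over Lama2. The injury differences under pyridostigmine were then 1.63, 0.97, 0.95 and -0.20 in the same order.

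Whether injury differed with treatment was tested as an interaction, and 0 of 31 genes passed (0% of all genes, 4 at an unadjusted p under 0.05, 0 by DESeq2 and 0 by limma voom, which called 0.0582% and 0% of all genes). The smallest adjusted p was 0.569, for Lamb3 (1.33 ± 0.48), followed by Itgb3 (-1.26 ± 0.49, adjusted p = 0.57). Without DTR_PYR 4, 5 and 6 these interactions were 0.56 and -0.68 (adjusted p = 1.0 for both). The smaller number of calls under pyridostigmine is therefore not shown to be a difference between treatments. In uninjured hearts, WT_PYR against WT_PBS, 0 of 31 genes passed (0% of all genes), 0 had an unadjusted p under 0.05, and DESeq2 and limma voom also called 0. Log2 differences there ran from -0.68 ± 0.43 (Itga2b) to 0.66 ± 0.47 (Lamc3), and that of Itgb1 was -0.30 ± 0.19. The 4 chain ratios differed by -0.12 to 0.29 (exact permutation adjusted p of 0.242 to 0.654).

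Other genes of the same machinery were counted from lists chosen with earlier results of these data known. Of 32 tested genes of the integrin adhesion complex, 15 rose and 4 fell with injury under vehicle, 46.9% and 12.5% of the list against 21.3% and 21.6% of all genes (median log2 difference 0.36, against 0.01 for all genes). Among them were Fermt3, the kindlin of blood cells (6.98 ± 2.27 CPM in WT_PBS and 34.8 ± 14.8 CPM in DTR_PBS, SD, n = 6, log2 difference 2.32, adjusted p = 0.000252), and Lpxn, the leukocyte paxillin relative leupaxin (0.878 ± 0.496 and 9.34 ± 6.65 CPM, 3.42, adjusted p = 0.000279). The actin crosslinkers Actn1 and Flna rose by 1.68 and 1.26. Under pyridostigmine 3 rose and 0 fell, Actn1 (1.11) and Fermt3 (1.49) among them, and the 9.38% of the list called lay below the 12.2% of all genes.

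Of 14 tested integrin ligands outside the laminins, 10 rose and 3 fell under vehicle, 92.9% of the list against 42.9% of all genes (median log2 difference 1.58). Tnc, tenascin-C, a ligand of alpha9 and alphav integrins, went from 8.73 ± 6.40 to 250 ± 110 CPM (log2 difference 4.90, adjusted p = 3.8e-05). Thbs1, thrombospondin-1, differed by 4.41 and Postn, periostin, by 3.04, and Ltbp1, which holds latent TGF-beta in the matrix, fell by 1.04. Under pyridostigmine 8 rose and 2 fell, 71.4% of the list against 12.2% of all genes, with log2 differences of 4.11 for Tnc, 3.52 for Thbs1, 1.89 for Postn and -0.62 for Ltbp1.

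Of 18 other basement membrane genes 6 rose and 7 fell under vehicle, 72.2% of the list (median -0.20). Agrn, agrin, which links laminin to dystroglycan, fell by 1.10 and Papln, papilin, fell by 2.38, whereas Fbln2, fibulin-2, rose by 1.67 and Col15a1, a collagen of the outer basement membrane, by 1.27, all on the log2 scale. Under pyridostigmine 1 rose (Fbln2, 1.09) and 2 fell, Agrn (-0.62) among them, 16.7% of the list and near the 12.2% of all genes. Of 19 tested genes of the dystrophin complex and other laminin receptors, 2 rose and 5 fell under vehicle, and this 36.8% of the list lay below the 42.9% of all genes (median -0.10). Sgca and Sgcb, sarcoglycans that sit beside dystroglycan in the muscle membrane, fell by 1.14 and 1.0, and Sntb1, a syntrophin, rose by 1.77. Under pyridostigmine 1 rose (Sntb1, 1.04) and 0 fell, 5.26% of the list against 12.2% of all genes. In the other 3 comparisons 0 genes of the 4 lists passed. Total-count scaling changed the counts under vehicle to 20 up and 1 down, 10 and 2, 7 and 4, and 5 and 4, in the order given, where 36.9% of all genes were up and 11.4% down.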

How the data were processed

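Gene counts were taken as the authors deposited them, in a table of raw whole-number read counts per gene for 24 libraries; per the labels' protocols the libraries were single-end and not strand-specific. The submitters' processing notes name the build GRCm38 and, among tools, HTSeq, TopHat2 2.1.1, TopHat, edgeR, DESeq and Bowtie2, without saying which made this table; the authors' filtered counts (15140 genes, 31 of the 32 genes described) and their normalized table were not tested. Groups came from sample titles, and replicate numbers follow accession order.

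Genes over 0.5 CPM in at least 6 libraries (15456) were scaled by TMM and fitted with edgeR 4.0.16 (glmQLFit, glmQLFTest; R 4.3.3), 4 groups in 1 fit, with Benjamini-Hochberg adjustment over all genes and a threshold of 0.05. Standard errors are the log2 difference over the square root of F. CPM are TMM-scaled. Chain ratios used reads plus 0.5 and exact two-sided permutation tests. Exonic lengths and overlaps came from GENCODE vM21.

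The genes, marker lists and pathway lists were chosen with earlier results of these data known. All 32 genes are accounted for; genes called in any comparison are given by lowest, median and highest value, and up to 4 called genes per pathway list by p under vehicle injury. One gene that this rule names is not reported here. Alternatives were DESeq2 size factors, total-count scaling, no filter, a filter of 13 libraries, DESeq2 1.42.0, limma voom 3.58.1, the tag letter as a term, each letter alone, only the 2 groups compared, and each library left out. Leaving out DTR_PYR 4, 5 and 6, and libraries under 3000000 reads, was chosen after seeing the data. Totals of 1877914 to 37842245 reads make low genes such as Itgae, Itgb8 and Lamc3 imprecise.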

Additional observations from a re-analysis of the deposited data

Results flagged for a closer look

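In 2 of 124 combinations of gene and group, 1 of the 6 libraries stood apart from the other 5 by Dixon's criterion. This is the gap as a share of the group's range, with the 95% critical value for 6. It was taken on log2 CPM with a prior count of 2, so the gaps below do not follow from the CPM printed beside them. Chance alone gives about 1 in 20. Itga6 in WT_PYR 1 was at 85.6 CPM, with the other 5 libraries at 149 to 173 CPM and a gap of 0.786 of the range. Itga8 in WT_PBS 4 was at 0.783 CPM, with the other 5 at 2.36 to 3.70 CPM and a gap of 0.697 of the range.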

How the results depend on the processing

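No called gene changed direction under any alternative run. Of 413 refits of genes called after injury under vehicle 386 kept the call and 27 lost it, and of 191 under pyridostigmine 127 kept it and 64 lost it. Under vehicle the 18 calls became 10 in V libraries alone (16.3% of all genes called) and 16 to 19 with 1 library left out (36.9% to 44.1%). Under pyridostigmine the 8 calls became 4 with no filter (4.2% of all genes called), 13 with DESeq2 (17.1%), 5 with limma voom (5.09%), 13 with the tag letter as a term (18.9%), 17 in U libraries alone, 0 in V libraries alone, 3 to 13 with 1 library left out, 17 without DTR_PYR 4, 5 and 6, and 0 without libraries under 3000000 reads. For pyridostigmine in injured hearts the 0 calls became 2 with DESeq2, 10 with limma voom, 4 in V libraries alone (4.96%), 0 to 12 with 1 library left out, and 12 without libraries under 3000000 reads. The cause of these shifts was not tested. Uninjured hearts and the interaction stayed at 0 calls in every alternative run. With 1 library left out, Itgb3 over Itgb5 gave 0.79 to 1.2 for injury under pyridostigmine, -1.51 to -1.09 for pyridostigmine in injured hearts, and -0.19 to 0.0288 in uninjured hearts, where it turned positive (0.0288) without WT_PBS 2. Itga5 over Itga7 gave -1.07 to -0.72 for pyridostigmine in injured hearts, passing without DTR_PYR 2, and Lamb1 over Lamb2 gave 0.41 to 0.74 for injury under pyridostigmine, passing without DTR_PYR 6. A set of 5 against 6 hearts has a larger smallest p than 6 against 6. No paired analysis was possible because each title carries its own animal tag and replicate numbers follow accession order only. The p-values weigh group differences against the spread between these hearts. In the main edgeR fit each gene's spread was estimated over all 4 groups together, the wide DTR_PYR group included.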
